A study of Mus musculus with 24 samples.

Results

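The genes described here encode 9 proteins that hold the sarcomere, the contractile unit of striated muscle, in register. Ttn encodes titin and Neb encodes nebulin. Mybpc1, Mybpc2 and Mybpc3 encode the slow skeletal, fast skeletal and cardiac forms of myosin-binding protein C. Myom1 and Myom2 encode myomesin and M-protein, and Actn2 and Actn3 encode the sarcomeric alpha-actinins. They were chosen by symbol and make up 9 of the 14537 genes counted. RNA was sequenced from heart and skeletal muscle of C57BL/6J males in 3 groups, with 4 libraries per group and tissue and 24 libraries in all. Control mice had sham surgery and are labelled as untreated. KPC mice carried orthotopic tumours, grown in the pancreas from the murine cell line KPC32908, and got vehicle. KPC+GnP mice carried the same tumours and got 2 drugs, gemcitabine, which interferes with DNA synthesis, and nab-paclitaxel, which stabilises microtubules. The study is titled as one of cachexia, the wasting that accompanies cancer. All tumours came from 1 cell line, and the comparison of KPC with control covers tumour and vehicle together. The sources used here do not name the ages of the mice or which muscle was taken.

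In a sarcomere, actin filaments are anchored in the Z-disc by alpha-actinin, and myosin filaments are cross-linked at the M-band by myomesin and M-protein. Titin runs from the Z-disc to the M-band as an elastic filament, nebulin lies along the actin filament of skeletal muscle, and myosin-binding protein C sits on the myosin filament and tunes cross-bridges. Loss of myofibrillar protein is a known feature of muscle wasting, and RNA levels do not measure protein.

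Depth was 18285396 to 27382432 counts per muscle library and 11020931 to 20969551 per heart library. The 9 genes together took 4.69 to 6.58% of muscle counts and 0.988 to 2.17% of heart counts. The tissues carried their labels' markers: 8 fast fibre markers summed to 125136 to 203386 CPM (counts scaled to library size, with trimmed mean of M values factors) in muscle and to at most 43.8 CPM in heart. Within KPC muscle, library 1 stood apart over all genes, with a chi-square per gene of 214 to 393 against the other 3, which differed among themselves by 25.8 to 78.8. The count column of that library carries an extra digit in its name and was assigned by animal number. Among hearts, atrial markers varied widely, from 42.5 CPM in KPC 2 to 19355 CPM in KPC+GnP 1, and were higher in all 4 KPC+GnP hearts than in any KPC heart. In whole tissue, fewer cells of a type and less RNA per cell cannot be told apart.

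Promoter sequence is shown for the gene that changed most, Myom1, for the 3 myosin-binding protein C genes, whose levels separate muscle from heart, and for Ttn. Each line gives the 250 bases before the RefSeq start (build GRCm38.p6), 5′ to 3′ on the gene's strand. 6 of the 9 genes had an entry. Capitals mark matches, on either strand, to the binding motif of the muscle factor MEF2, to the E-box CANNTG bound by the MyoD family, or to the MCAT core CATTCC. In Mybpc3 the MEF2 match and an E-box adjoin and read as 1 run. The lines are chr17:71019307-71019556 (+ strand) for Myom1, chr10:88605153-88605402 (− strand) for Mybpc1, chr7:44524670-44524919 (− strand) for Mybpc2, chr2:91117894-91118143 (+ strand) for Mybpc3 and chr2:76982548-76982797 (− strand) for Ttn.
Myom1: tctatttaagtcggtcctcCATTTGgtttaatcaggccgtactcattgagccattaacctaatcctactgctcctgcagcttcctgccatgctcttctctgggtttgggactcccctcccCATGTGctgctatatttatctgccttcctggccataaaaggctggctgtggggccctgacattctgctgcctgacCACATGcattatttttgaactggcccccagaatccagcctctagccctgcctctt
Mybpc1: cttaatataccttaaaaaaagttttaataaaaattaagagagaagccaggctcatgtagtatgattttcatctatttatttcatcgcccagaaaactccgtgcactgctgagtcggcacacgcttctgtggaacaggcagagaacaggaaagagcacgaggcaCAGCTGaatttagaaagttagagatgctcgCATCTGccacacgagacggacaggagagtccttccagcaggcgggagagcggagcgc
Mybpc2: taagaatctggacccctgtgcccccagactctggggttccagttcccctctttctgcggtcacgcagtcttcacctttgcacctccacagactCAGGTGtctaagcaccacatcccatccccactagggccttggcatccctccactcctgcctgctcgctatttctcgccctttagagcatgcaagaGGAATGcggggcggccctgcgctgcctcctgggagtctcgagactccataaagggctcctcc
Mybpc3: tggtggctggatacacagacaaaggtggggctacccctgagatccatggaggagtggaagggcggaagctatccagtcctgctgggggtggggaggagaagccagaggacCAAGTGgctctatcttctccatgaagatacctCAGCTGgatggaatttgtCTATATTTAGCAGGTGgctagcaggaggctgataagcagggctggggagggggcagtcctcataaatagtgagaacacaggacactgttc
Ttn: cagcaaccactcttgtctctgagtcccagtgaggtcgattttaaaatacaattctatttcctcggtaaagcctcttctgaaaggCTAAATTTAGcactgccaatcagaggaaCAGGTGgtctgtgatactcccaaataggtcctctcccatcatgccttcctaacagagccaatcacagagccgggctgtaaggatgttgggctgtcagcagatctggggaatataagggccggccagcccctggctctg
Among these and the sixth, that of Actn2, a MEF2 match was found in Ttn and Mybpc3, and 2.92% of all 32851 promoters of this length hold one. E-boxes were found in all 6, but 66.2% of all promoters hold one, and an MCAT core was found in Mybpc2, against 12.6% of all. A match is a description of letters and not a binding site. The RefSeq start of Myom1 lies inside the range that GENCODE vM21 gives the gene, so the window shown is that of an internal start.

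The first question was which scaffold belongs to which tissue. In control mice 7 of the 9 genes were higher in muscle than in heart and 1, Mybpc3, was lower, where 59.5% of all 14509 genes tested differed, 29.2% higher and 30.3% lower (edgeR quasi-likelihood test, Benjamini-Hochberg adjusted p under 0.05, here and throughout). Scaled by library totals alone, 1782 genes were higher and 8299 lower, in place of 4234 and 4402. The myosin-binding protein C genes split most sharply. Mybpc3 (chr2:91118144-91136516, GRCm38, GENCODE vM21) had 0 counts in all 4 control muscles and 0 to 5 counts in the other 8 muscles. In the 4 control hearts it stood at 4012, 3118, 4762 and 4582 CPM. Scaled by library totals alone, the heart mean of 3833 CPM is at least 27534.5-fold above muscle when each muscle library is set at a floor of 3 counts. The floor covers counting error only.

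Mybpc1 (chr10:88518279-88605152) showed the opposite, with 1741, 1931, 1757 and 1951 CPM in control muscles and 0 to 11 counts in each of the 12 hearts. Mybpc2 (chr7:44501699-44524656) had 8384, 6969, 5992 and 6906 CPM in control muscles against 22.8, 23.3, 26.3 and 27.2 CPM in control hearts, which is 8.92 higher on the log2 scale (edgeR, SE 0.39, adjusted p = 2.73e-14). Neb (chr2:52136647-52378474) was higher in muscle by 9.95 (SE 0.49) and Actn3 (chr19:4861216-4877909) by 12.61 (SE 0.72). None of these muscle libraries overlapped a heart library.

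Ttn, Myom1 and Myom2, which both tissues use, differed far less. Ttn (chr2:76703980-76982547, with 347 exons in its longest coding transcript) was higher in muscle by 1.45 on the log2 scale (edgeR, SE 0.36, adjusted p = 0.00154), Myom2 (chr8:15057653-15133541) by 0.86 (SE 0.19, edgeR adjusted p = 0.000592) and Myom1 (chr17:71002633-71126856) by 0.71 (SE 0.19, edgeR adjusted p = 0.00302). Under library totals alone, which move the median of all genes to −0.70, Myom1 was at 0.07 (adjusted p = 0.724) and Myom2 at 0.22 (adjusted p = 0.261), and 5 of the 9 genes passed as higher in place of 7. With animal as a block Myom1 was at 0.68 (adjusted p = 0.0893). Actn2 (chr13:12269426-12340760), the alpha-actinin of heart and of all fibre types, was at −0.57 (SE 0.26, edgeR adjusted p = 0.0614), which did not pass. It passed with median-of-ratios scaling, at −0.60 (edgeR adjusted p = 0.0492), and with library totals alone, at −1.21 (edgeR adjusted p = 0.000211).

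Levels of different genes can be compared only per length, and the log2 FPKM the authors deposited are on separate scales in the 2 tissues. In control muscle the order was Actn3 at 11.82 ± 0.17 (SD, n = 4), Mybpc2 at 11.32 ± 0.21, then Mybpc1 at 9.25 ± 0.10, Neb at 9.21 ± 0.17, Myom1 at 9.04 ± 0.14, Myom2 at 8.78 ± 0.12, Actn2 at 8.64 ± 0.12 and Ttn at 7.76 ± 0.21. The fast forms Actn3 and Mybpc2 stood above all others, and from Mybpc1 to Actn2 each gene's libraries overlapped those of the next. In KPC muscle Myom1 moved from the fifth place to the third, at 10.01 ± 0.22, though its libraries overlapped those of Neb. In control heart the order was Mybpc3 at 9.56 ± 0.27, Actn2 at 9.20 ± 0.26, Myom1 at 8.32 ± 0.21, Myom2 at 7.92 ± 0.15, Ttn at 6.30 ± 0.30 and Mybpc2 at 2.41 ± 0.12, with Neb, Actn3 and Mybpc1 below 0. Only Mybpc3 with Actn2, Myom1 with Myom2, and Neb with Actn3 overlapped there as neighbours.

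What the tumour changes in skeletal muscle was read from KPC against control. Myom1, the M-band cross-linker, about doubled and was the clearest change among the 9 genes. Its control muscles stood at 2447, 2314, 2000.04 and 2239.7 CPM and its KPC muscles at 3729, 4308, 5079 and 5472 CPM. Every KPC library lay above every control library. The log2 fold change was 1.05 (SE 0.15, edgeR adjusted p = 0.000392). It stayed between 0.96 and 1.12 when any 1 library was left out and was 0.89 with library totals alone, and all of these were past the threshold. Without KPC muscle 1, the library that stood apart, it was 1.12 (edgeR adjusted p = 6.56e-06). Exons of Myom1 share 207 bases with those of Myl12a on the other strand, and the sources used here do not say whether counting used strand.

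**Figure D1:**
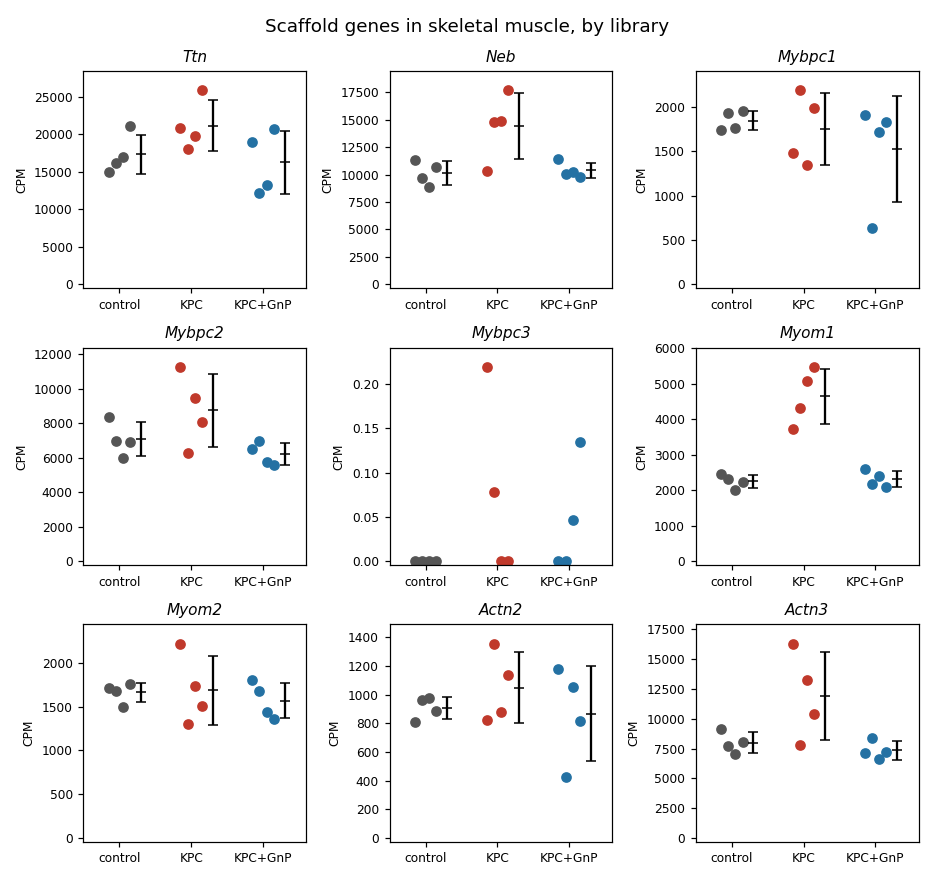
CPM of the 9 scaffold genes in each skeletal muscle library, linear axes from 0, grey for control, red for KPC and blue for KPC+GnP. Points are libraries, and the black marks beside them give the mean ± SD (n = 4), left out for Mybpc3, which had 0 to 5 counts. The 4 KPC libraries of Myom1 sit between 3729 and 5472 CPM, above all other libraries.

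3 of the 8 genes tested rose in KPC muscle and 0 fell, where 49.7% of all 12760 genes tested were called, 27.5% higher and 22.1% lower. Groups did not overlap for 1 of the 8, Myom1, against 37.2% of all genes. By library totals alone 2308 genes were higher and 4064 lower, in place of 3512 and 2824. Calls were thus common among all genes, and the median log2 fold change of the 8 was 0.30 beside −0.0026 over all genes. Mybpc3 had too few counts to be tested. The 3 that rose were Myom1, Neb and Actn3, and the calls of Neb and Actn3 depended on single libraries and on scaling. Nebulin RNA was at 11305, 9704, 8845 and 10719 CPM in controls and at 10333, 14780.4, 14854 and 17687 CPM in KPC muscle. KPC 1 lay within the control range and the other 3 above it, and the log2 fold change was 0.51 (SE 0.17, edgeR adjusted p = 0.0271).

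Actn3, the alpha-actinin of fast fibres, was at 9131, 7709, 7056 and 8043 CPM in controls and at 16281, 7783, 13279.5 and 10354 CPM in KPC muscle. Here KPC 2 lay within the control range, and the log2 fold change was 0.58 (SE 0.21, edgeR adjusted p = 0.0331). With library totals alone, or with only these 2 groups in the fit, neither gene passed: Neb was at 0.35 and 0.50 (adjusted p = 0.112 and 0.0645) and Actn3 at 0.40 and 0.57 (adjusted p = 0.0908 and 0.0727). Neb also failed without control 2, 3 or 4 or KPC 3 or 4, with adjusted p up to 0.0884. Actn3 also failed by limma-trend and without control 2, 3 or 4 or KPC 1 or 3. Without KPC muscle 1, Neb was at 0.62 (edgeR adjusted p = 0.00129) and Actn3 at 0.38 (edgeR adjusted p = 0.0792).

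The other 5 genes did not pass. Myom2, the M-protein of fast fibres and heart, was at 1708, 1679, 1497 and 1757 CPM in controls and at 2216, 1299, 1729 and 1501 CPM in KPC muscle. KPC 1 lay above all controls and KPC 2 below them. Ttn, by far the longest, was at 15029, 16186, 16991 and 21056 CPM in controls and at 20835, 18053, 19834 and 25889 CPM in KPC muscle. The groups overlapped, and the log2 fold change of 0.29 had a 95% interval of −0.16 to 0.74 (edgeR adjusted p = 0.261). Mybpc2 was at 0.31 (−0.09 to 0.71), Actn2 at 0.21 (−0.36 to 0.77), Myom2 at 0.02 (−0.33 to 0.37) and Mybpc1 at −0.08 (−0.68 to 0.52). Without KPC muscle 2, Mybpc2 passed, at 0.45 (edgeR adjusted p = 0.0458). The counts are per gene and cannot show which titin isoforms were present.

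Markers of other cells moved in the same libraries. All 5 fibroblast markers fell in KPC muscle, and their summed level was 205 to 310 CPM there against 605 to 1616 CPM in controls and 507 to 929 CPM in KPC+GnP muscle. Of 4 smooth muscle markers 3 fell, while 1 of 8 fast fibre markers rose and 0 of 7 slow fibre markers passed. Their part in the rise of Myom1 was not tested.

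KPC+GnP against KPC muscle shows what differed with treatment among tumour-bearing mice. It shares the KPC libraries with the comparison above, so the values run opposite in part by construction. Myom1 stood at 2586, 2175, 2387 and 2079 CPM in KPC+GnP muscle. All 4 lay below all 4 KPC libraries, and the log2 fold change, −1.01 (SE 0.15, edgeR adjusted p = 0.000465), stayed past the threshold under the 7 other settings and without any 1 of the 8 libraries. 4 of 8 genes fell and 0 rose, where 49.8% of all genes were called, 23.1% higher and 26.7% lower. Groups did not overlap for 1 of the 8, against 33.6% of all genes. By library totals alone 4898 genes were higher and 1780 lower, in place of 2945 and 3412.

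The other 3 that fell had overlapping groups. Actn3 was at 7084, 8413, 6635 and 7210.0 CPM in KPC+GnP muscle, which is −0.70 on the log2 scale (edgeR, SE 0.21, adjusted p = 0.0142). Neb was at 11387, 10088, 10269 and 9752 CPM (−0.47, SE 0.17, edgeR adjusted p = 0.0363). Mybpc2, which had 11269, 6255, 9469 and 8073 CPM in KPC muscle, was at 6536, 6948, 5744 and 5592 CPM with treatment (−0.50, SE 0.19, edgeR adjusted p = 0.0398). Each of these 3 calls was lost with library totals alone, at −0.44, −0.23 and −0.24, and with only the 2 groups in the fit. Neb also failed without KPC 2, 3 or 4 or KPC+GnP 2, 3 or 4, and Mybpc2 by limma-trend and without KPC 1, 3 or 4 or KPC+GnP 1, 3 or 4. Without KPC muscle 1, Myom1 was at −1.10 (edgeR adjusted p = 8.00e-06) and Actn3 at −0.52 (edgeR adjusted p = 0.0218). Ttn was at −0.38 (95% interval −0.83 to 0.07) and Myom2 at −0.10 (−0.45 to 0.25).

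KPC+GnP muscle 2 had the lowest Mybpc1 and Actn2 of all muscles, at 637 and 424 CPM, where the other 3 treated muscles had 1711 to 1906 and 814 to 1177 CPM. Slow fibre markers summed to 297 CPM in that library, against 959 to 2536 CPM in the other 3. KPC muscle 3, with the lowest sum of all at 251 CPM, had the lowest Mybpc1 of its group at 1340 CPM, but not the lowest Actn2. In KPC muscles 1 to 4 the slow marker sums were 731, 1054, 251 and 490 CPM. Mybpc1 was at 1479, 2187, 1340 and 1987 CPM there, and Actn2 at 820, 1354, 876 and 1138 CPM. The part of fibre type in these levels was not tested.

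KPC+GnP muscle was then set against control muscle. None of the 8 genes passed, and 0% of all genes did by edgeR, with 413 of 12760 at an unadjusted p under 0.05, while DESeq2 called 1 and limma-trend 0. Groups overlapped for all 8, where 4.40% of all genes did not overlap. Myom1 differed by 0.04 (95% interval −0.28 to 0.35), Neb by 0.03 (−0.34 to 0.40), Actn3 by −0.12 (−0.57 to 0.32) and Ttn by −0.09 (−0.54 to 0.36). The widest intervals were those of Mybpc1, at −0.28 (−0.88 to 0.32), and Actn2, at −0.07 (−0.63 to 0.50).

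**Figure D2:**
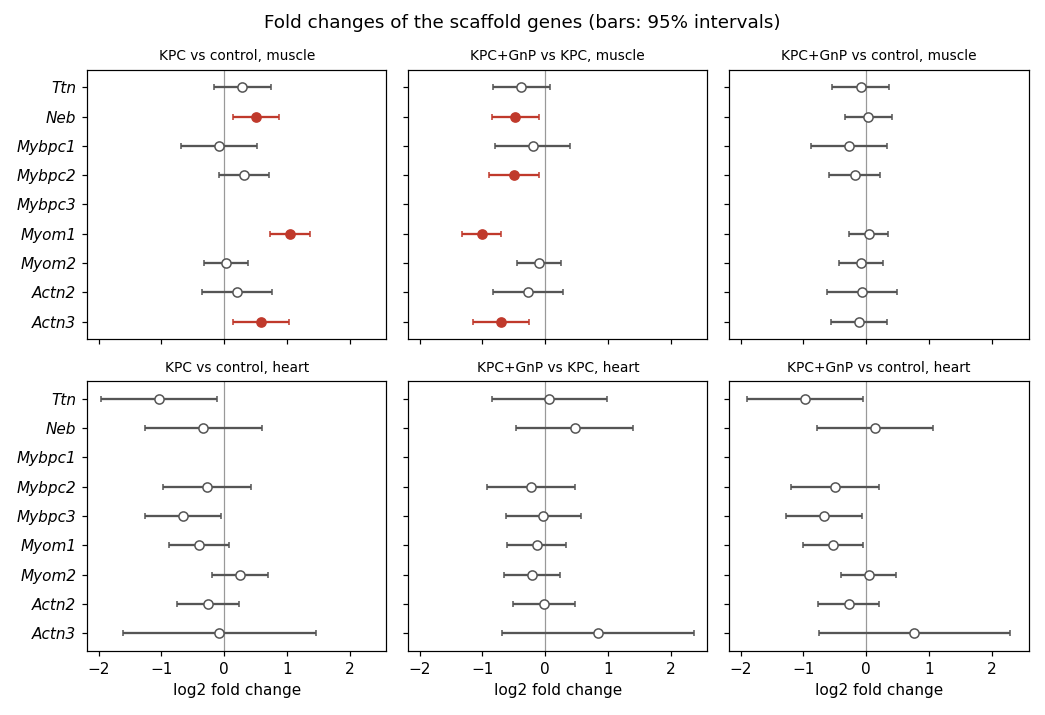
Log2 fold changes of the 9 genes (points) with 95% intervals (bars) for 3 comparisons in muscle, above, and heart, below. Filled red points passed an edgeR adjusted p of 0.05 and open grey points did not, and Mybpc3 in muscle and Mybpc1 in heart were not tested. Myom1 lies at 1.05, −1.01 and 0.04 in muscle, and no gene passed in heart.

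In heart the same question was put to KPC against control. 0 of the 8 genes tested passed, where 9.34% of all 13846 genes were called, 4.95% higher and 4.38% lower. Groups overlapped for all 8, where 14.4% of all genes did not overlap. By library totals alone 1368 genes were higher and 330 lower, in place of 686 and 607. At an unadjusted p under 0.05 stood Ttn and Mybpc3, both lower. Ttn was at 12094, 11931, 7808 and 11475 CPM in control hearts and at 2774, 2745, 4526 and 10996 CPM in KPC hearts. KPC 1, 2 and 3 lay below all controls and KPC 4 lay among them. The log2 fold change was −1.04 (SE 0.42, 95% interval −1.96 to −0.12, edgeR adjusted p = 0.123).

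That result turned on 1 library and on the test. Without KPC heart 4, Ttn was at −1.69 (edgeR adjusted p = 0.00421) and Mybpc3 at −0.92 (edgeR adjusted p = 0.0225), and over all genes 3554 were called in place of 1293. DESeq2 called Ttn with all libraries, at −1.03 (adjusted p = 0.0493). Over the 8 libraries left out in turn, Ttn ranged from −1.69 to −0.81, with adjusted p from 0.00421 to 0.278. Mybpc3, the cardiac myosin-binding protein C, was at 2342, 1627, 2545 and 3989.9 CPM in KPC hearts, again with KPC 4 inside the control range (log2 fold change −0.65, SE 0.28, edgeR adjusted p = 0.138).

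The dependence on transcript length differed between control and KPC hearts. Each library's deviation from the mean of all hearts was fitted against gene length. The slopes were −0.10, −0.06 and −0.07 per doubling of length (log2) in KPC hearts 1 to 3, 0.07 in KPC heart 4 and 0.01 to 0.09 in controls, the lowest of them control 3, which also had the lowest Ttn of its group. KPC+GnP hearts 1 to 4 had slopes of 0.0035, 0.03, −0.10 and −0.0031, with Ttn at 3928, 7019, 3897 and 7129 CPM. The 361 tested genes of 15000 exonic bases or more had a median log2 fold change of −0.13 in KPC against control heart. With length offsets per library, which took that median to 0.04, Ttn was at −0.92 (adjusted p = 0.117). Those offsets were fitted with length capped at 15000 bases, and Ttn has 116825 exonic bases. They thus give Ttn the offset of a gene of 15000 bases and not one for its own length. Neutrophil markers also moved, and all 4 rose. They summed to 22.1, 241, 198 and 18.7 CPM in KPC hearts 1 to 4 and to 2.83 to 9.03 CPM in controls. KPC hearts 1 and 4 were thus close in these markers, with Ttn at 2774 and 10996 CPM. The part of these markers and of transcript length in the level of Ttn was not tested.

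The remaining heart genes did not pass. Myom1 was at 2569, 1866, 2491 and 2440.0 CPM in control hearts and at 1540.1, 1372, 1745 and 2459 CPM in KPC hearts, with KPC 4 again among the controls. Myom2 was at 1371, 1476, 1716 and 1664 CPM in control hearts and at 1268, 1849, 2175 and 2111 CPM in KPC hearts, where KPC 2, 3 and 4 lay above all controls and KPC 1 below them. Myom1 was at −0.40 (95% interval −0.87 to 0.08), Actn2 at −0.26 (−0.75 to 0.23) and Myom2 at 0.25 (−0.19 to 0.69). Mybpc2, Neb and Actn3 are expressed at a low level in heart, at means of 24.9, 17.4 and 2.12 CPM in controls, and their intervals were wide, that of Actn3 reaching from −1.61 to 1.46.

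**Figure D3:**
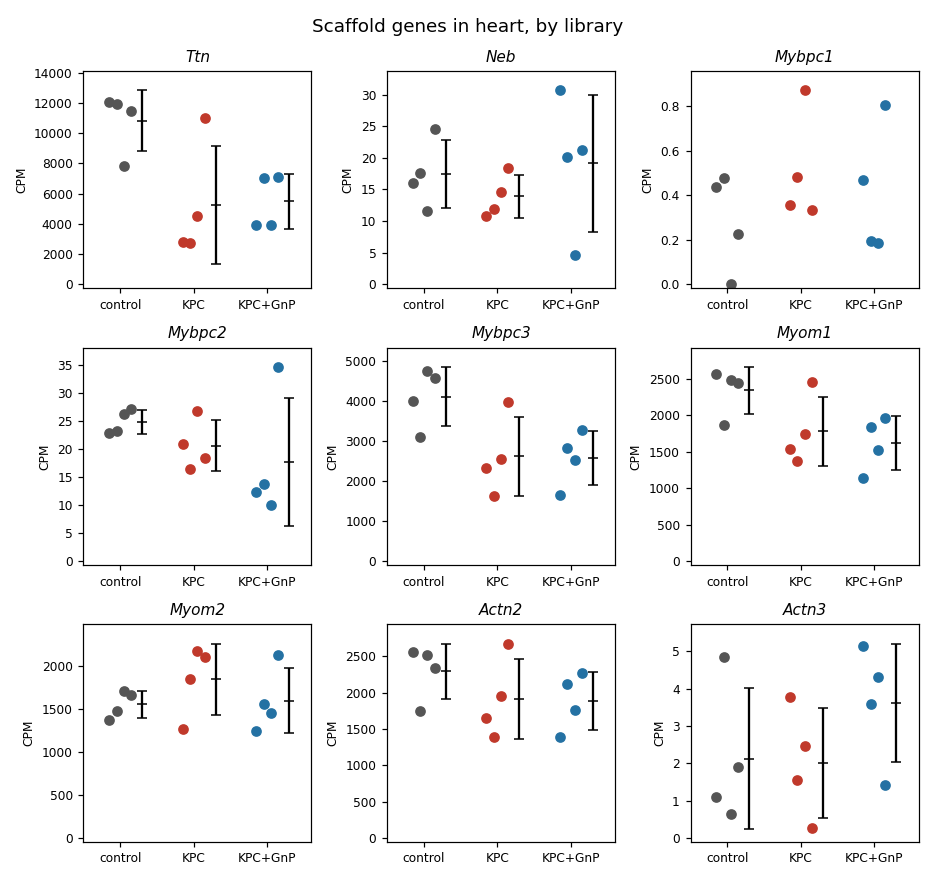
CPM of the 9 scaffold genes in each heart library, linear axes from 0, grey for control, red for KPC and blue for KPC+GnP. Points are libraries and black marks the mean ± SD (n = 4), left out for Mybpc1, which had 0 to 11 counts. In Ttn, 3 KPC hearts lie between 2745 and 4526 CPM and the fourth at 10996 CPM, among the controls.

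Treatment did not shift the heart genes past the threshold either. Between KPC+GnP and KPC hearts 0 of 8 genes passed, with 1.55% of all genes called, 1.13% higher and 0.412% lower. That count of 214 genes became 0 to 1192 without 1 library, the highest without KPC heart 4 and the lowest without KPC heart 3. Groups overlapped for all 8, where 8.10% of all genes did not overlap, and Ttn differed by 0.06 (95% interval −0.85 to 0.98). Between KPC+GnP and control hearts 0 of 8 passed, with 1.23% of all genes called, 0.816% higher and 0.412% lower. That count of 170 genes became 1 to 340 without 1 library, the highest without KPC+GnP heart 4 and the lowest without control heart 1 or 3. By library totals alone 328 genes were higher and 46 lower, in place of 113 and 57. Ttn was at 3928, 7019, 3897 and 7129 CPM in treated hearts, all below the lowest control at 7808 CPM, which made it the 1 of 8 without overlap, against 15.9% of all genes. Its log2 fold change was −0.98 (95% interval −1.90 to −0.06, edgeR adjusted p = 0.227). Myom1 was at −0.54 (−1.01 to −0.06, edgeR adjusted p = 0.206) and Mybpc3 at −0.68 (−1.28 to −0.07, edgeR adjusted p = 0.207). Mybpc2 passed without KPC+GnP heart 4, at −1.02 (edgeR adjusted p = 0.0127). Atrial markers summed to 1422 to 19355 CPM in treated hearts against 118 to 3317 CPM in controls, and 2 of 4 adipocyte markers rose. Their part in these values was not tested.

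Whether a gene responded differently in the 2 tissues was tested directly. For KPC against control the change of Myom1 was larger in muscle by 1.36 (SE 0.27, edgeR adjusted p = 0.00235), the single gene of the 9 to pass, where 25.8% of all 14509 genes were called, 12.4% higher and 13.4% lower. For KPC+GnP against KPC it was lower in muscle by 0.83 on the log2 scale (a difference of −0.83, SE 0.27, edgeR adjusted p = 0.0296), again the single gene to pass, with 25.7% of all called, 12.5% higher and 13.2% lower. With animal as a block, which uses the 8 animals that gave both tissues, the values were 1.41 (adjusted p = 0.136) and −0.64 (adjusted p = 0.495), and over all genes 1 and 25 were called in place of 3747 and 3725. The second call also failed with library totals alone, at −0.65 (edgeR adjusted p = 0.0613), and in 8 of 16 fits without 1 library, with adjusted p up to 0.0662. Those libraries were KPC muscle 3 and 4, KPC+GnP muscle 2 and 4, KPC heart 1 and 2 and KPC+GnP heart 2 and 4. Over all genes and by library totals alone, 755 genes were higher and 3436 lower, in place of 1800 and 1947 for the first difference, and 2997 genes were higher and 961 lower, in place of 1813 and 1912 for the second. Without KPC heart 4, Ttn also differed between tissues in the first comparison, by 1.91 (adjusted p = 0.00169), and DESeq2 called it with all libraries, at 1.31 (adjusted p = 0.0212).

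Ratios within a library do not depend on how libraries are scaled. The log2 ratio of Myom2 to Myom1 counts was −0.52, −0.46, −0.42 and −0.35 in control muscles, −0.75, −1.73, −1.55 and −1.87 in KPC muscles, and −0.52, −0.38, −0.73 and −0.61 in KPC+GnP muscles. All KPC muscles lay below both other groups, KPC 1 only just, by a mean difference of −1.04 from control. In hearts the ratio was −0.91, −0.34, −0.54 and −0.55 in controls, −0.28, 0.43, 0.32 and −0.22 in KPC and 0.13, −0.24, −0.06 and 0.12 in KPC+GnP. There both tumour groups lay above all controls, by mean differences of 0.64 and 0.57. The lowest of them was KPC 1, at −0.28 beside −0.34 in control 2.

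Each of these 4 differences, with the rise of 0.91 from KPC to KPC+GnP muscle among them, had an exact permutation p of 0.0286, the smallest that 4 against 4 libraries allow, and an adjusted p of 0.15 over the 21 ratio tests, so none passed. In KPC against control the group means of the ratio moved in opposite directions in the 2 tissues, by −1.68 between muscle and heart. An exact permutation of group labels within each tissue gave p = 0.000408, the smallest that its 4900 relabellings allow. This test was chosen after the values had been seen, and it treats the tissues as independent although 8 animals gave both. Groups without overlap in each tissue, in opposite directions, fix its p at this smallest value. The test therefore adds no support beyond the separation already described. The ratios Neb/Ttn, Actn3/Actn2 and Mybpc2/Mybpc1 in muscle and Mybpc3/Ttn and Actn2/Ttn in heart overlapped between groups in every comparison.

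**Figure D4:**
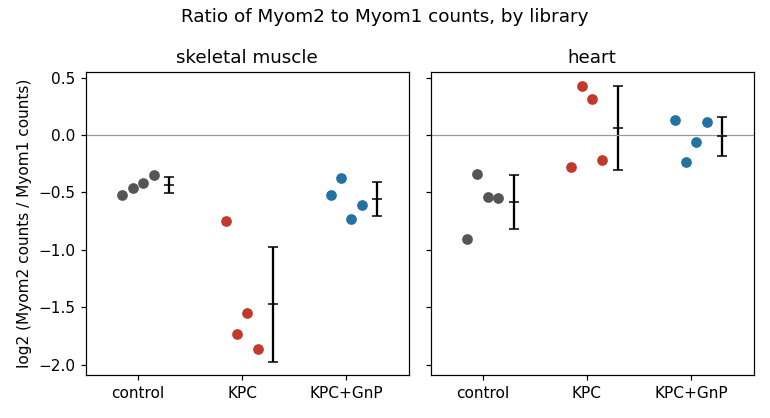
Log2 ratio of Myom2 to Myom1 counts in each library of muscle, left, and heart, right, by group, with points for libraries and black marks for the mean ± SD (n = 4). The KPC muscles lie lowest, from −1.87 to −0.75, and the KPC hearts lie above the control hearts, from −0.28 to 0.43.

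The scaffolds were set beside 64 other sarcomere genes in 6 lists. In KPC against control muscle 20 of the 62 tested rose and 11 fell, with a median log2 fold change of −0.12. These shares are near those over all genes, of which 27.5% rose and 22.1% fell. At the M-band, Trim63, a ubiquitin ligase that binds titin there, rose from 183 to 302 CPM in controls to 527 to 5355 CPM in KPC muscle (3.92, SE 0.52, edgeR adjusted p = 0.000367). Its relatives split, Trim54 rising by 0.70 (SE 0.12) and Trim55 falling by 0.40 on the log2 scale (SE 0.10). Of the 11 M-band and thick filament genes tested, 2 rose and 4 fell, with a median log2 fold change of −0.40. At the Z-disc 6 of 18 rose and 3 fell: the actin cross-linker gene Flnc was at 2.02 (SE 0.42), and Nrap, a scaffold of myofibril assembly, at 1.57 (SE 0.30). Of the titin I-band partners, Ankrd2 at 1.28 (SE 0.48), Ankrd1 at 0.92 (SE 0.36) and Smyd2 at 0.85 (SE 0.18) rose, and 1 of 7 fell. Ankrd2 and Ankrd1 each passed in only 2 of the 8 fits that leave out 1 library. Without KPC muscle 2, Ankrd2 was at 0.49 (edgeR adjusted p = 0.259), and without KPC muscle 4, Ankrd1 was at 0.59 (edgeR adjusted p = 0.176). Both were also lost with library totals alone, by limma-trend and with only the 2 groups, and Ankrd2 by DESeq2.

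Among 8 regulators of titin splicing 4 rose and 0 fell, a count over few genes beside the 27.5% and 22.1% of all genes. Rbm20, which represses titin exons in heart, rose from 74.1 to 82.6 CPM in controls to 99.8 to 332 CPM in KPC muscle (1.57, SE 0.26, edgeR adjusted p = 0.000781), and Rbfox1 rose by 0.92 (SE 0.16). On the thin filament the actin nucleator genes went apart, Lmod2 at 1.39 (SE 0.36) and Lmod3 at −0.83 (SE 0.20). Of 8 assembly chaperones 3 rose, with Hspb7 at 1.42 (SE 0.34), and 2 fell, with the myosin methyltransferase and chaperone gene Smyd1 at −0.70 (SE 0.25). Smyd1 passed in 2 of the 8 fits without 1 library, those without control 3 and without KPC 1, and was at −1.11 (edgeR adjusted p = 1.57e-05) in the latter. It was lost with only the 2 groups. With treatment 20 of the 62 were lower and 7 higher than in KPC muscle, where 26.7% of all genes were lower and 23.1% higher. Trim63 was at −3.96 (SE 0.52), Rbm20 at −1.56 (SE 0.26) and Nrap at −1.57 (SE 0.30). Against control 0 passed, as did 0 of all 12760 genes. Without KPC muscle 1, each list gene named here kept its call in these comparisons, with Trim63 at 4.26 and Rbm20 at 1.80 in KPC against control; the counts per list were not recomputed without it.

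**Figure D5:**
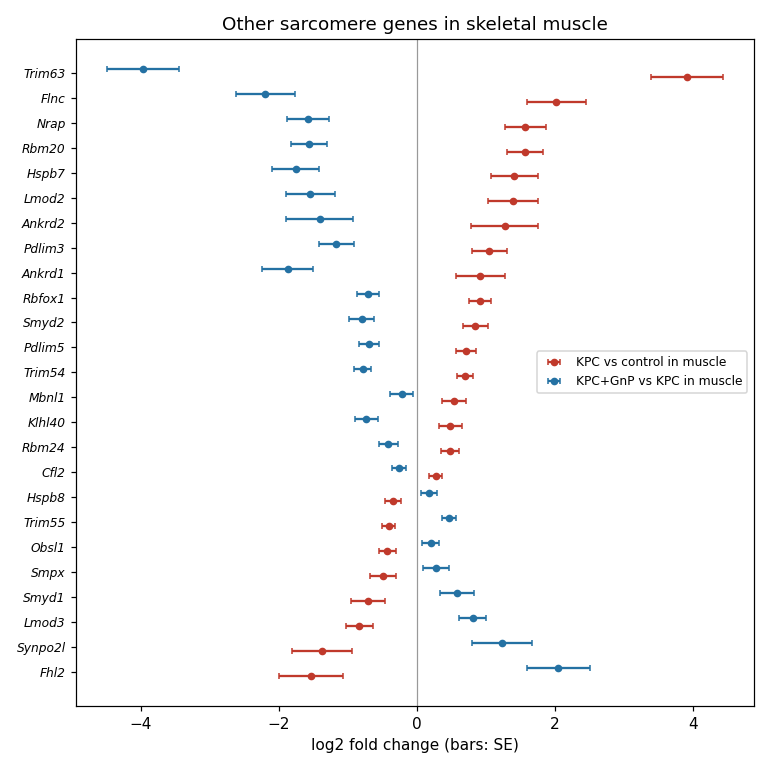
Log2 fold changes (points) with SE (bars) of other sarcomere genes in skeletal muscle that were named by rule and passed in KPC against control, red, with the same genes in KPC+GnP against KPC, blue. Trim63 has the largest pair, at 3.92 and −3.96. The KPC libraries enter both comparisons.

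In heart 7 of 60 fell and 1 rose in KPC against control, where 4.38% of all genes fell and 4.95% rose. Lmod3 fell from 129 to 205 CPM in controls to 34.2 to 94.2 CPM (−1.49, SE 0.29, edgeR adjusted p = 0.0179), and the Z-disc gene Synpo2l fell by 1.03 on the log2 scale (SE 0.21) and Xirp2 by 0.96 (SE 0.23). Actn1, a non-muscle alpha-actinin, rose by 1.24 (SE 0.20, edgeR adjusted p = 0.0094). The chaperone genes Hspb8 at −0.80 (SE 0.21) and Unc45b, a myosin chaperone, at −0.63 (SE 0.18) fell. Actn1 kept its call in all 8 fits without 1 library, Synpo2l in 6, Lmod3 in 4, Xirp2 in 2 and Hspb8 and Unc45b in 1 each, with adjusted p up to 0.115. The 1 fit that kept Hspb8 and Unc45b was that without KPC heart 4. With treatment Tpm2, a tropomyosin gene, was higher than in KPC heart by 1.93 (SE 0.43, edgeR adjusted p = 0.048), and Ankrd23 was lower than in control by 1.57 on the log2 scale (a change of −1.57, SE 0.34, edgeR adjusted p = 0.0467). Tpm2 passed in 2 and Ankrd23 in 1 of the 8 fits without 1 library, with adjusted p up to 0.152 and 0.151. Tpm2 was also lost by limma-trend and with only the 2 groups. Its libraries spanned 25.2 to 137 CPM in treated hearts and 19.4 to 29.9 CPM in KPC hearts. Atrial markers summed to 1422 to 19355 CPM in treated hearts and to 42.5 to 929 CPM in KPC hearts. Smooth muscle markers summed to 137 to 421 CPM and to 70.5 to 181 CPM. The part of these markers in the level of Tpm2 was not tested.

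The genes whose log2 CPM ran most alike over the 12 libraries of a tissue were also named by rule, as a description over libraries that share scaling and groups. For Myom1 in muscle they included Faf1 (r = 0.989) and Ttc1 (0.987). For Neb in muscle the closest was Ipo7 (0.978) and for Actn2 it was Myh1 (0.947), a fast myosin heavy chain. Mybpc2 and Actn3 both had Pygm, the muscle glycogen phosphorylase, among their 3 closest, at 0.960 and 0.951. Ttn in muscle had no gene above 0.859, that of Camk2g. In heart Ttn ran closest with Osbpl3 (0.975) and Mybpc3 with Cand2 (0.984), and Mybpc3 and Myom1 both had Hrc, a calcium-binding protein of the sarcoplasmic reticulum, among their 3 closest, at 0.984 and 0.973.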

How the data were processed

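RNA of skeletal muscle and heart was compared across 3 groups of 4 libraries per tissue. Per the labels' protocols, 100 ng of total RNA went into KAPA mRNA libraries, sequenced as paired ends of 100 bases. The submitters' processing notes name FastQC 0.11.5, STAR 2.5, featureCounts, Subread 1.5.1, edgeR 3.12.1 and mm10; the sources used here do not state annotation or strand use. The authors deposited raw counts per gene and log2 FPKM, whose scales differ 1.68-fold between the 2 tissues' tables. 1 muscle count column, that of KPC muscle 1, carries an extra digit and was assigned by its animal number. KPC muscle 1 is also the library that stood apart within its group over all genes.

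Counts were fitted per tissue (edgeR 4.0.16, R 4.3.3; filterByExpr with minimum count 10 and total 15, TMM, quasi-likelihood F test, Benjamini-Hochberg over all genes, threshold 0.05), and all 24 libraries in one fit between tissues. The fit was tested on simulated data. Ratios carried a pseudocount of 0.5 (exact two-sided permutation, scipy 1.17.1). Alternatives used DESeq2 1.42.0, limma 3.58.1 on log2 FPKM, other scalings, no filter, length offsets (loess, span 0.5, length capped at 15000 bases), fewer samples and an animal block. Title numbers were read as animals, 8 of them in both tissues, and this is where the pairing comes from. Same-numbered libraries correlated at −0.28 to 0.28, and differently numbered libraries of the same group at −0.25 to 0.34. The correlations thus give no support for this reading. Control labels also name the cell line and were used as sham controls. Members and lists were chosen with earlier results of these data known. List genes named were up to 3 per list and comparison with the smallest p, and 3 per member and tissue for likeness, of which a part is reported here. Myl12a overlaps Myom1, and genes on the other strand overlap Ttn, Neb, Mybpc1 and Mybpc2, so reads there may be shared. The shared exonic bases were 453 for Ttn, 45 for Neb, 252 for Mybpc1 and 192 for Mybpc2. None of the genes overlapping these members is in the deposited counts, while Myl12a is. Counting error alone is small at this depth for genes with high counts, whose precision is set by 4 libraries per group. It is not small for Actn3 in heart, with 4 to 99 counts per library, for Mybpc1 in heart or for Mybpc3 in muscle.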

Additional observations from a re-analysis of the deposited data

Results flagged for a closer look

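Of 48 groups of 4 libraries checked, 3 held a library far from the other 3, and chance alone flags about 1 in 20. Mybpc1 in KPC+GnP muscle 2 was at 637 CPM, against 1711 to 1906 CPM in the other 3. Ttn in control heart 3 was at 7808 CPM, against 11475 to 12094 CPM. Myom1 in control heart 2 was at 1866 CPM, against 2440 to 2569 CPM.

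The change of Myom1 differed between muscle and heart by 1.36 for KPC against control (edgeR adjusted p = 0.00235) and by −0.83 for KPC+GnP against KPC (edgeR adjusted p = 0.0296). The change of the Myom2/Myom1 ratio in KPC against control differed between muscle and heart by −1.68.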

How the results depend on the processing

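No called result changed direction. Among results that did not pass, the sign turned without 1 library for several small differences, among them 5 ratio differences (Mybpc2/Mybpc1 in KPC+GnP against control muscle ranged from −0.22 to 0.40). In KPC against control muscle, scaffold genes called higher numbered 1 instead of 3 with library totals alone and with only the 2 groups compared, and 1 to 4 without 1 library. In KPC+GnP against KPC muscle, scaffold genes called lower numbered 1 instead of 4 under the same 2 settings, and 2 to 3 without 1 library. In heart, DESeq2 called 1 member lower in KPC against control, where edgeR called 0, and leaving out 1 library gave 0 to 2; for KPC+GnP against control it gave 0 to 1. In control muscle against heart, scaffold genes called lower were 2 instead of 1 with median-of-ratios scaling, library totals alone and DESeq2, and 1 to 2 without 1 library. For the difference between tissues in KPC against control, scaffold genes called higher were 3 with DESeq2 and 0 with the animal block instead of 1, and 1 to 3 without 1 library. For KPC+GnP against KPC, scaffold genes called lower were 0 with library totals alone and 0 with the animal block instead of 1, and 0 to 2 without 1 library. The cause was not tested. The animal block also ended the call of Myom1 in muscle against heart. No paired analysis was possible within a tissue because its groups hold different animals. The difference of Myom2/Myom1 between tissues stayed between −1.92 and −1.55 without any 1 library, an alternative added after seeing the data. Library totals moved the median of all genes to −0.17 (KPC against control muscle), 0.27 (KPC+GnP against KPC muscle) and 0.17 (KPC against control heart). In heart, calls over all genes in KPC against control ranged from 104 to 3554 without 1 library, and were 2499 with DESeq2 and 229 with only the 2 groups. With those 2 settings they were 1136 and 3 for KPC+GnP against KPC, and 1056 and 918 for KPC+GnP against control.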
